A study of Mus musculus with 26 samples.

Results

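The small heat shock proteins measured here are the products of 5 mouse genes, Hspb1, Cryab, Hspb2, Hspb6 and Hspb8, which were taken by their symbols. All 5 had a row among the 20430 genes of the RNA tables and among the 19941 genes of the ribosome footprint tables, and no row carried an older name of theirs. They were followed in NIH3T3, a fibroblast line long established from mouse embryos, in a series on transcription that continues past gene ends under stress. Cells were held at 44 °C for 2 h or at 42 °C for 8 h and had their own control. Other cells received H2O2 (oxidative stress) or KCl (osmotic stress), each for 2 h or 7 h, and these 4 groups shared 1 control, so that comparisons with it are not independent. PolyA-selected RNA was sequenced in all 8 groups. Ribosome footprints, the mRNA fragments protected by translating ribosomes, were analysed in the 5 groups of the H2O2/KCl experiment. Each of the 13 groups held 2 replicates, giving 16 RNA and 10 footprint libraries. The labels give no concentration of H2O2 or KCl, and nothing in them says that replicates were separate cultures, so the p-values below measure only the spread between these libraries, which may be technical.

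Small heat shock proteins share an alpha-crystallin domain, assemble into large oligomers and hold unfolding proteins in a soluble state without using ATP, until ATP-driven chaperones refold them. Several of their genes are targets of HSF1, the transcription factor that is activated by unfolded protein and binds heat shock elements, inverted repeats of the short unit nGAAn. HSPB1 (HSP25 in the mouse) and CRYAB (alpha B-crystallin) are broad chaperones that also guard actin and intermediate filaments. HSPB2 is a muscle protein, HSPB6 (HSP20) is a target of protein kinase A in smooth and heart muscle, and HSPB8 acts with the co-chaperone BAG3 to send damaged proteins to autophagy.

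The start-site windows of Hspb1, Hspb8 and Hspb6 are shown so that matches to a pair of heat shock element units can be read as letters. Their bearing on the heat responses of these genes was not tested. RefSeq windows on GRCm38.p6, from 250 bases before to 50 bases after each start, were at hand for 3 of the 5 genes. Windows of Cryab and Hspb2 were not used here. Below, capitals mark GAANNTTC, a pair of facing units in which N is any base. The letters of this pair and of the opposite pair TTCNNGAA read the same on both strands, so a single search covers both, and adjoining pairs may overlap. The Hspb1 and Hspb8 stretches run from 250 bases before the start to 10 bases from it onward (260 bases each). The Hspb1 stretch is chr5:135887669-135887928 on the plus strand and the Hspb8 stretch is chr5:116422855-116423114 on the minus strand. For Hspb6 only the match with 10 bases on either side is shown, at chr7:30553171-30553198 on the plus strand.
Hspb1: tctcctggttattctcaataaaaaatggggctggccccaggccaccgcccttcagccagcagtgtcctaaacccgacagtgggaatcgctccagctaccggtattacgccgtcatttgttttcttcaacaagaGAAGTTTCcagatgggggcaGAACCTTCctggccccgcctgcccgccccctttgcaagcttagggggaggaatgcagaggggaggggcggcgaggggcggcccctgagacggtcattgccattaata
Hspb8: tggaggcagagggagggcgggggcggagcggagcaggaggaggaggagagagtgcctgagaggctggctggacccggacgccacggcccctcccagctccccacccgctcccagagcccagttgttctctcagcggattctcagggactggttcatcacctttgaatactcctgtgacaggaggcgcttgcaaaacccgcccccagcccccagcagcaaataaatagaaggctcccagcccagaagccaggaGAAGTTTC
Hspb6: agtaattattGAAGTTTCtaaataagga

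Hspb1 held 2 GAANNTTC matches, beginning at positions -117 and -97 from its start site (counted as 0). Hspb8 held 1 match, at position 2, inside the first bases of the transcript. Hspb6 had 2 windows. The window at the upstream end of the gene held no match, and the window within the gene held 1 match at position -120 from its own start site. TTCNNGAA was in none of these 4 windows, and no window held 3 alternating units in a row. Of all 32851 RefSeq windows of 300 bases, 7.86% held GAANNTTC, 15.1% held either pair and 0.603% held 3 alternating units. A match of this length is a description of letters and not a site.

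On GRCm38.p6, Hspb1 spans chr5:135887919-135889563, Hspb8 chr5:116408491-116422864 and Hspb6 chr7:30552535-30555443. Hspb2 spans chr9:50751072-50752354 and lies within the interval of Cryab, chr9:50745951-50756636. No source used here says that the authors counted reads by strand, so reads of Cryab and Hspb2 may not be told apart in full. RNA libraries held 24441877 to 45244430 expected counts and footprint libraries 1460751 to 5168537, the lowest being H2O2 2 h replicate 1. All 10 fibroblast markers had a median of at least 1 TPM, and their summed RNA level was 4840 to 13100 TPM. It averaged 4850 TPM at 7 h of H2O2 and 10600 TPM in that control. Of 8 striated muscle markers only 1 reached a median of 1 TPM, with a summed level of 1.52 to 8.67 TPM, and Myod1 and Actc1 stayed at or below 0.05 TPM. Lens markers, among them Cryaa, summed to 0.09 to 1.27 TPM. Of 4 smooth muscle markers 3 passed 1 TPM, with group means of the sum of 957 TPM in the heat control, 385 at 44 °C, 1270 at 42 °C, 661 in the H2O2/KCl control and 369 at 7 h of H2O2. Neural and glial markers (1 of 3 past 1 TPM) summed to 3.14 to 32.8 TPM and epithelial markers (1 of 4) to 7.89 to 19.6 TPM. No marker was at 0 in every library. The part of these shifts in the results below was not tested. In bulk RNA, fewer cells of a type and less RNA per cell cannot be told apart.

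Heat raised Hspb1 far more than the other 4 genes. In TPM, a level per transcript length, its RNA was 116.69 and 137.06 in the 2 heat controls, 4685.94 and 5093.76 at 44 °C for 2 h, and 1695.57 and 1791.6 at 42 °C for 8 h. Both heated groups lay above the controls and did not overlap each other. By TPM it ranked 1581 and 1308 of 20430 genes in the controls. In the 44 °C libraries it ranked 10 and 8, and in the 42 °C libraries 80 and 71. In CPM, the count scaled to library size on which the tests rest, it went from 47.2 ± 5.32 (SD, n = 2) to 1740 ± 136 at 44 °C, a rise of 5.21 on the log2 scale (SE 0.076, adjusted p 5.86e-15) or 37.0-fold. Here and below, adjusted p is the Benjamini-Hochberg value of edgeR's quasi-likelihood F test over all genes fitted, and a gene is called at less than 0.05. At 42 °C Hspb1 stood at 738 ± 20.8 CPM, 3.97 higher than the control (SE 0.072, adjusted p 2.8e-14). These were ranks 19 and 35 from the top among 12747 genes tested.

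**Figure D1:**
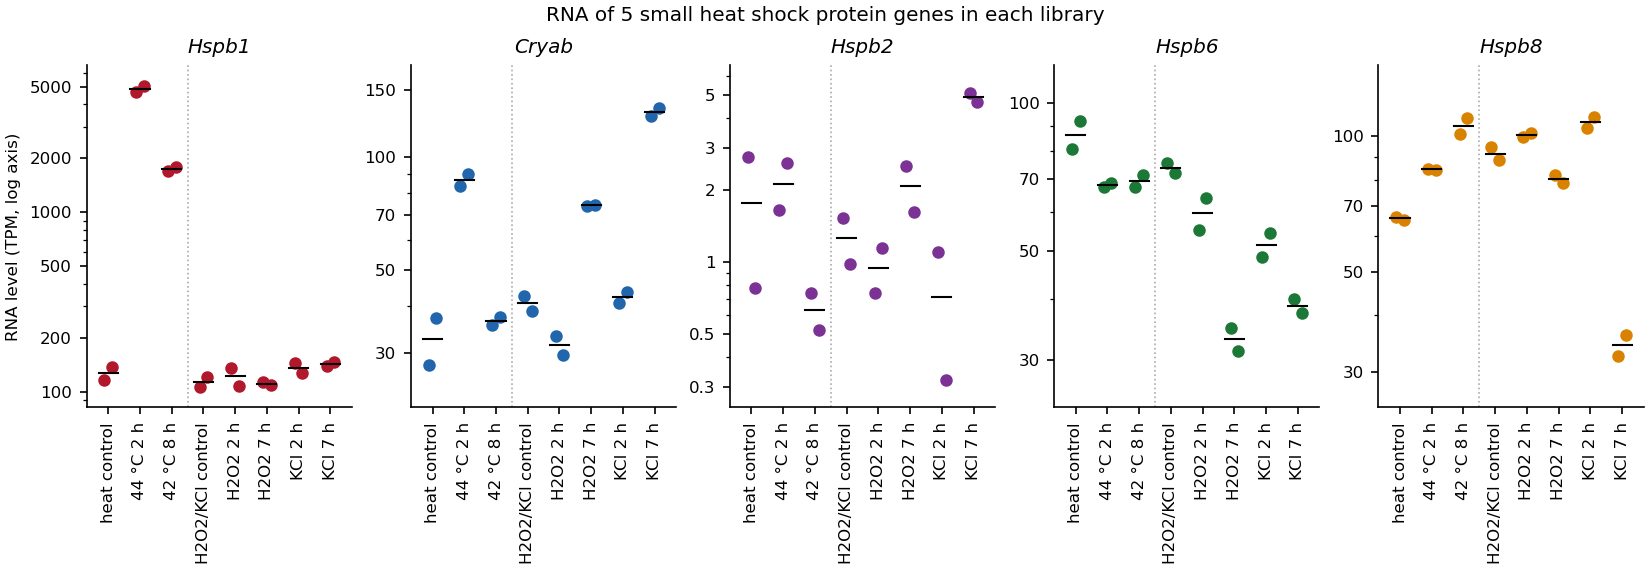
RNA level of each gene in TPM on a log axis, with 1 point per library and a bar at the mean of the 2 replicates. The dotted line separates the heat experiment from the H2O2/KCl experiment. Hspb1 is high in the 4 heated libraries, at 1695.57 TPM or more, and at 145.97 TPM or less in all others.

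Cryab, the partner chaperone of filaments, rose at 44 °C and little at 42 °C. Its TPM was 28.01 and 37.35 in the controls, 83.77 and 89.78 at 44 °C, and 35.71 and 37.44 at 42 °C. The 44 °C libraries lay clear of all others of this experiment, while the 42 °C libraries overlapped the controls in TPM but not in CPM. The log2 rise at 44 °C was 1.27 (SE 0.1, adjusted p 6.58e-08), or 2.4-fold. At 42 °C it was 0.31 (SE 0.11, adjusted p 0.024). That second call was lost without control replicate 1 (0.11), without 42 °C replicate 1 (0.35) or replicate 2 (0.27), and on log2(TPM + 1) (0.17, adjusted p 0.141). Without control replicate 2 the rise was 0.53. On log2(TPM + 1) the median of all genes sat at -0.17 in this comparison, against -0.014 in the fit.

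Hspb8, the BAG3 partner, showed the opposite order of the heat treatments. It stood at 66.12 and 65.17 TPM in the controls, 84.65 and 84.31 at 44 °C, and 101.18 and 109.92 at 42 °C, with no overlap between the 3 groups. Its log2 rise was 0.3 at 44 °C (SE 0.048, adjusted p 6.44e-05) and 0.87 at 42 °C (SE 0.047, adjusted p 2.41e-09), the latter 1.83-fold. Hspb6, the protein kinase A target, was lower at 44 °C. Its TPM was 80.47 and 91.78 in the controls, 67.35 and 68.82 at 44 °C and 67.35 and 71.26 at 42 °C. It fell by 0.41 at 44 °C (SE 0.065, adjusted p 5.99e-05). At 42 °C the difference was -0.13 (SE 0.064, adjusted p 0.0933), and without control replicate 1 it was -0.22. On log2(TPM + 1) it was called (-0.31, adjusted p 0.000721 by limma). There the median of all genes sat at -0.17, against -0.014 in the fit.

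Hspb2 was barely expressed, at 0.32 to 5.1 TPM and 3 to 45 counts over the 16 RNA libraries. Heat controls held 26 and 7 counts, 44 °C libraries 14 and 20, and 42 °C libraries 7 and 4, so the controls alone spanned both 44 °C libraries. The log2 difference was 0.23 at 44 °C (SE 0.46, adjusted p 0.659) and -1.21 at 42 °C (SE 0.58, adjusted p 0.0821). Without control replicate 2 these became -0.32 (adjusted p 0.521) and -1.76 (adjusted p 0.00866). At 42 °C the difference was also called with no filter on low counts (-1.22, adjusted p 0.0468). It was called on log2(TPM + 1) too (-0.66, adjusted p 0.0426, with the median of all genes at -0.17), so that call depended on the setting.

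Counted together, 4 of the 5 genes were called at 44 °C (3 higher, 1 lower) and 3 at 42 °C (all higher). Over all genes tested, 71.0% were called at 44 °C (35.4% higher, 35.7% lower) and 63.6% at 42 °C (31.7% higher, 31.9% lower), so the number of called members was close to that of genes at large. The median log2 change of the 5 genes was 0.3 at 44 °C and 0.31 at 42 °C, against -0.00034 and -0.014 over all genes. The sum of the 5 genes went from 294 and 332 TPM in the controls to 4920 and 5340 TPM at 44 °C and 1900 and 2010 TPM at 42 °C. Hspb1 made up 39.7% and 41.3% of that sum in the controls, 95.2% and 95.4% at 44 °C, and 89.2% and 89.1% at 42 °C. Smooth muscle markers averaged 957 TPM in the control and 385 TPM at 44 °C, where Hspb6 fell. At 42 °C, where Hspb6 was not called, they averaged 1270 TPM. Their part in the fall of Hspb6 was not tested.

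The 2 heat treatments differ in both temperature and time, which cannot be told apart here. Set directly against each other, all 5 genes were called, where 75.1% of all genes were. At 42 °C for 8 h Hspb1 was lower than at 44 °C for 2 h by 2.36-fold (log2 -1.24, SE 0.062, adjusted p 3.59e-10) and Cryab by 1.94-fold (log2 -0.95, SE 0.1, adjusted p 9.04e-07). Hspb8 was higher by 0.57 (SE 0.047, adjusted p 5.5e-08) and Hspb6 by 0.28 (SE 0.066, adjusted p 0.00164). On log2(TPM + 1), where the median of all genes sat at -0.21 in this comparison, the difference was 0.32 for Hspb8 (adjusted p 6.78e-05) and 0.02 for Hspb6 (adjusted p 0.714). Relative to that median Hspb6 remained on the positive side. Hspb2 differed by -1.45 (SE 0.57, adjusted p 0.0337), a call that was lost with DESeq2 (-1.48, adjusted p 0.109) and without 44 °C replicate 2 (-1.13, adjusted p 0.164), 42 °C replicate 1 (-1.74, adjusted p 0.086) or 42 °C replicate 2 (-1.25, adjusted p 0.142). On log2(TPM + 1) it was -0.92 (adjusted p 0.00724).

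Other chaperone genes known as HSF1 targets give the setting of these changes. All 18 listed genes were called higher at 44 °C (median log2 change 1.07) and all 18 at 42 °C (median 1.13). The largest rises at 44 °C were those of Hspa1a (3.23, SE 0.14), Hsph1 (2.99, SE 0.056) and Hspa1b (2.92, SE 0.11), which encode HSP70 and HSP110 chaperones. Hspb1 exceeded each of them there. At 42 °C Hspa1a (7.22, SE 0.16) and Hspa1b (6.41, SE 0.12) were ahead of Hspb1, and Dnajb1, an HSP40 co-chaperone, reached 3.27 (SE 0.048). Hspa1a and Hspa1b are near-identical copies whose reads the counting may split between them, so their separate values are uncertain. Of the factors themselves, Hsf1 rose by 0.5 at 44 °C (SE 0.051, adjusted p 6.61e-07) and 0.38 at 42 °C (SE 0.051, adjusted p 1.98e-05). Hsf2 rose by 0.41 and 0.42 (SE 0.061 and 0.062), while Hsf4 fell by 0.24 and 0.33 (SE 0.086 and 0.088). Hsbp1, which binds and restrains HSF1, completed that list of 4 (2 higher and 1 lower in each treatment, median 0.21 at 44 °C and 0.14 at 42 °C).

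**Figure D2:**
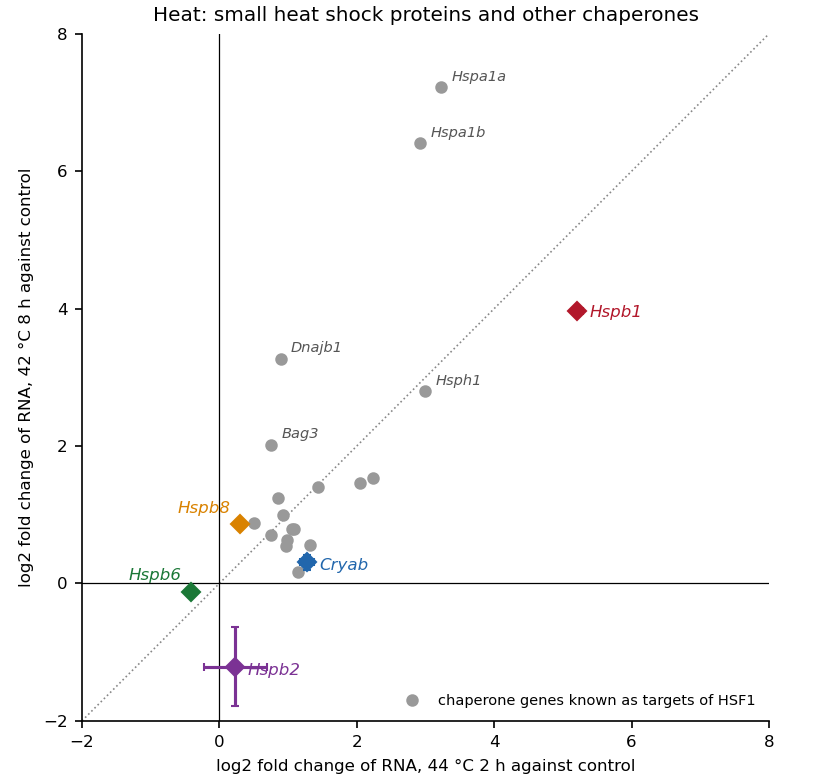
Log2 fold change of RNA at 44 °C for 2 h (horizontal) and at 42 °C for 8 h (vertical), each against the heat control, for the 5 genes (diamonds, ± SE of the fit) and 18 other chaperone genes (grey). Hspb1 (5.21, 3.97) and Cryab (1.27, 0.31) lie below the dotted line of equal change, and Hspb8 (0.3, 0.87) lies above it. Of the grey genes, Hspa1a, Hspa1b, Dnajb1, Bag3, Hspa8, Dnaja1 and Cacybp also lie above that line.

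Under H2O2 Hspb1 was called at neither time, while Cryab and Hspb6 changed. Hspb1 stood at 106.1 and 120.29 TPM in the control, 135.94 and 107.97 after 2 h, and 112.82 and 108.35 after 7 h. The 3 groups overlapped. Its log2 difference was 0.11 at 2 h (SE 0.098, adjusted p 0.377) and 0.05 at 7 h (SE 0.099, adjusted p 0.671). Without H2O2 2 h replicate 2 the first was 0.27 (adjusted p 0.0366), and without replicate 1 it was -0.071 (adjusted p 0.577).

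Cryab first fell and then rose under H2O2. It was at 42.66 and 38.8 TPM in the control, 33.36 and 29.67 at 2 h, and 74.02 and 74.5 at 7 h, without overlap between groups. At 2 h it fell by 0.4 (SE 0.082, adjusted p 0.00101), and at 7 h it was 0.9 higher (SE 0.077, adjusted p 1.01e-07), or 1.87-fold. The 7 h group exceeded the 2 h group by 1.3 (SE 0.081, adjusted p 3.39e-09). Hspb6 fell at both times. Its TPM was 75.53 and 72.19 in the control, 55.31 and 64.25 at 2 h, and 34.9 and 31.29 at 7 h. The fall was 0.3 at 2 h (SE 0.086, adjusted p 0.00847) and 1.07 at 7 h (SE 0.09, adjusted p 9.28e-08), the latter 2.1-fold, with -0.77 between the times (SE 0.092, adjusted p 3.68e-06). The 2 h call was lost without H2O2 2 h replicate 1 (-0.21, adjusted p 0.101) and without control replicate 1 (-0.26, adjusted p 0.0703).

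Hspb8 was called against the control at neither time of H2O2. Control libraries held 94.46 and 88.49 TPM, those at 2 h 99.56 and 101.82, and those at 7 h 81.96 and 78.83. Against the control the difference was 0.14 at 2 h (SE 0.063, adjusted p 0.0841) and -0.11 at 7 h (SE 0.064, adjusted p 0.15). On log2(TPM + 1) the latter was -0.18 (adjusted p 0.0256), and the times differed from each other by -0.24 (SE 0.064, adjusted p 0.0036). Hspb2 held 19 and 11 counts in the control, 8 and 10 at 2 h, and 22 and 11 at 7 h. It differed by -0.32 (SE 0.45, adjusted p 0.57) and 0.7 (SE 0.4, adjusted p 0.131). Between the times Hspb2 gained 1.02 (SE 0.44, adjusted p 0.0498), a call lost with DESeq2 (0.98, adjusted p 0.155), with RLE size factors (0.99, adjusted p 0.0569) and without 2 h replicate 1 (0.92, adjusted p 0.158), 2 h replicate 2 (1.14, adjusted p 0.103) or 7 h replicate 1 (0.65, adjusted p 0.349). On log2(TPM + 1) it was 0.65 (adjusted p 0.0193).

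Of the 5 genes, 2 were called at 2 h of H2O2 (both lower) and 2 at 7 h (1 higher, 1 lower). The share of all 13256 genes called was 53.9% at 2 h, with 27.3% higher and 26.5% lower. It was 70.5% at 7 h, with 39.4% higher and 31.1% lower. The members' count at 7 h was thus below that share, over 5 genes. Their median log2 change was -0.3 and 0.05, against -0.00095 and 0.075 over all genes. Without control replicate 1, or without H2O2 2 h replicate 1, 1 member was called at 2 h. Between the 2 times 4 of the 5 were called, against 73.4% of all genes. Smooth muscle markers averaged 701 TPM at 2 h of H2O2, where Hspb6 was called lower, against 661 TPM in the control. At 7 h of H2O2 the summed fibroblast markers averaged 4850 TPM against 10600 TPM in the control, and smooth muscle markers 369 against 661 TPM. Striated muscle markers averaged 7.88 against 3.15 TPM and neural and glial markers 32.1 against 14.6 TPM. Nearly all of the neural and glial sum was Tubb3 (3.11 to 32.74 TPM over all libraries), with Gfap at most 0.32 and Sox10 at most 0.02 TPM. No striated muscle marker passed 5.3 TPM, the highest value of Des. The part of these marker shifts in the changes of Hspb6 and Cryab was not tested.

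All 5 genes were called at 7 h of KCl, 3 higher and 2 lower, where 68.8% of all genes were called (37.2% higher, 31.6% lower). Cryab moved little before then. Cryab held 40.93 and 43.61 TPM at 2 h and 127.98 and 134.51 at 7 h, against 42.66 and 38.8 in the shared control. Its difference at 2 h was 0.11 (SE 0.081, adjusted p 0.255), and at 7 h it rose by 1.74 (SE 0.075, adjusted p 2.71e-10), or 3.34-fold. This was its highest level in any group, above that at 44 °C, although the experiments had separate controls. Hspb2 also reached its highest level there. Its counts were 8 and 3 at 2 h and 45 and 28 at 7 h, against 19 and 11 in the control. The 7 h rise was 2.04 (SE 0.34, adjusted p 9.5e-05) and remained called in each alternative, between 1.39 and 2.3. Since Hspb2 lies within the interval of Cryab, its 4.65 and 5.1 TPM may hold reads of Cryab.

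Hspb8 went the other way. It rose at 2 h of KCl, with 104.06 and 110.58 TPM against 94.46 and 88.49, and fell at 7 h to 32.46 and 36.11 TPM, its lowest level in the series. The log2 change was 0.33 at 2 h (SE 0.064, adjusted p 0.000606) and -1.32 at 7 h (SE 0.069, adjusted p 1.34e-09), a fall of 2.5-fold. Between the times it dropped by 1.65 (SE 0.069, adjusted p 1.97e-10). Hspb6 fell at both times, with 48.54 and 54.49 TPM at 2 h and 39.88 and 37.49 at 7 h. Its change was -0.42 at 2 h (SE 0.088, adjusted p 0.0011) and -0.83 at 7 h (SE 0.09, adjusted p 1.62e-06). Smooth muscle markers averaged 673 and 616 TPM at these times, against 661 TPM in the control.

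Hspb1 rose slightly under KCl. It held 144.37 and 127.81 TPM at 2 h and 138.1 and 145.97 at 7 h, above both control libraries. The log2 rise was 0.37 at 2 h (SE 0.099, adjusted p 0.00528), which was not called without control replicate 1 (0.29, adjusted p 0.0683), and 0.43 at 7 h (SE 0.099, adjusted p 0.00139). At 1.35-fold this is far from its 37.0-fold rise at 44 °C. Between the times of KCl it differed by 0.05 (SE 0.1, adjusted p 0.644), and between those of H2O2 by -0.06 (SE 0.1, adjusted p 0.609).

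At 2 h of KCl 3 members were called (2 higher, 1 lower) and at 7 h all 5 (3 higher, 2 lower). All genes were called in 54.2% of cases at 2 h (27.2% higher, 27.0% lower) and in 68.8% at 7 h (37.2% higher, 31.6% lower). The median of the 5 genes was 0.11 and 0.43, against 0.0 and 0.039 over all genes. Between the KCl times 4 were called, against 68.8% of all genes, with Cryab at 1.63 (SE 0.078, adjusted p 5.46e-10), Hspb2 at 2.67 (SE 0.42, adjusted p 6.27e-05) and Hspb6 at -0.41 (SE 0.094, adjusted p 0.00137). Despite these changes the sum of the 5 genes stayed between 294 and 359 TPM in all RNA libraries that were not heated. Within it, Cryab took 13.3% and 12.1% in the control and 37.3% and 37.5% at 7 h of KCl, while Hspb8 went from 29.5% and 27.6% to 9.45% and 10.1%.

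**Figure D3:**
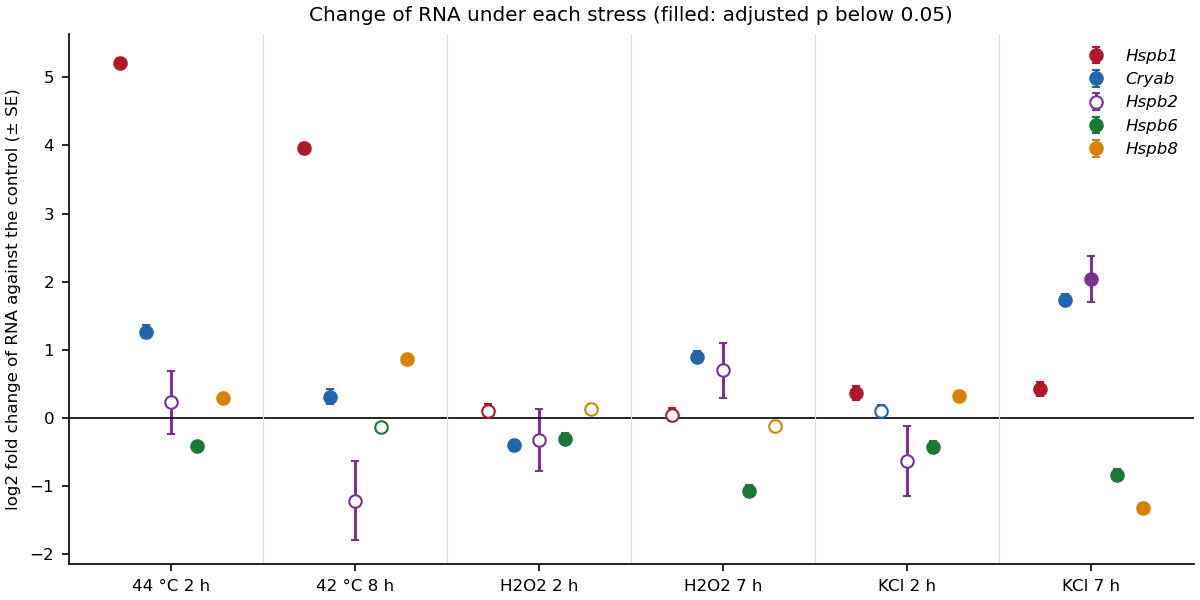
Log2 fold change of RNA (± SE of the fit) of each gene under each of 6 stresses, against the control of its experiment. Filled symbols have an adjusted p below 0.05. Hspb1 stands out in the 2 heat treatments, and at 7 h of KCl Cryab and Hspb2 (1.74 and 2.04) lie opposite Hspb8 and Hspb6 (-1.32 and -0.83).

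H2O2 and KCl were also compared with each other at matched times, for which the shared control plays no part in the difference. At 7 h all 5 genes were called, against 78.4% of all genes. Under H2O2 Cryab was lower than under KCl (log2 -0.84, SE 0.074, adjusted p 8.76e-08), as were Hspb2 (-1.34, SE 0.34, adjusted p 0.00216) and Hspb1 (-0.38, SE 0.1, adjusted p 0.00309). Hspb8 was 1.21 higher (SE 0.069, adjusted p 8.38e-10), or 2.32-fold. Hspb6 was lower by a small margin (-0.24, SE 0.096, adjusted p 0.0321), which was not called without H2O2 7 h replicate 2 (-0.17, adjusted p 0.198) or KCl 7 h replicate 1 (-0.18, adjusted p 0.197).

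At 2 h 3 were called, all lower under H2O2, against 51.3% of all genes. Of these the Cryab difference (-0.51, SE 0.085, adjusted p 0.000194) remained called in each alternative. Hspb1 (-0.27, SE 0.1, adjusted p 0.0375) was not called without H2O2 2 h replicate 2 (-0.11, adjusted p 0.405) or KCl 2 h replicate 1 (-0.18, adjusted p 0.211), and was -0.44 (adjusted p 0.00285) without H2O2 2 h replicate 1. Hspb8 (-0.19, SE 0.064, adjusted p 0.0233) was not called without H2O2 2 h replicate 1 (-0.17, adjusted p 0.114) or replicate 2 (-0.2, adjusted p 0.0668), or without KCl 2 h replicate 2 (-0.15, adjusted p 0.109). On log2(TPM + 1) both missed the threshold (Hspb1 -0.16, adjusted p 0.217, and Hspb8 -0.091, adjusted p 0.278). There the median of all genes sat at 0.069, against 0.0 in the fit. Hspb6 differed by 0.11 (SE 0.09, adjusted p 0.316) and Hspb2 by 0.3 (SE 0.56, adjusted p 0.682), the latter -0.25 (adjusted p 0.77) without KCl 2 h replicate 2.

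Among the HSF1 chaperone genes, 3 were higher and 4 lower at 2 h of H2O2 (median -0.04), and 7 were higher and 7 lower at 7 h (median -0.04). Under KCl 13 of the 18 were higher at 2 h (median 0.38), and 11 were higher and 4 lower at 7 h (median 0.17). After 7 h of KCl Hspa4l, an HSP110 relative, rose by 3.16 (SE 0.09, adjusted p 5.2e-12), Hspa1b by 2.82 (SE 0.12) and Hsph1 by 2.49 (SE 0.06). After 7 h of H2O2 Dnajb1 rose by 0.96 (SE 0.062), while Hspa4l (-1.24, SE 0.086) and Hspa1b (-1.03, SE 0.12) fell. Smaller changes at 2 h of H2O2 were those of Hspa1b (-0.49, SE 0.12), Hsp90aa1 (0.33, SE 0.072) and Fkbp4 (-0.28, SE 0.065). Hspb1, with 0.43 at 7 h of KCl, stood well below these HSP110 rises. Of the 4 factor genes, Hsf2 rose at 2 h and 7 h of KCl (1.06 and 0.84, SE 0.069 each) and Hsf4 fell (-0.54 and -1.61, SE 0.086 and 0.096), with 1 higher and 1 lower at either time (medians -0.06 and 0.08). After 7 h of H2O2 Hsf4 (0.83, SE 0.077) and Hsbp1 (0.47, SE 0.06) rose and Hsf2 (-0.67, SE 0.073) fell, 2 higher and 2 lower in all (median 0.14). At 2 h of H2O2 2 were lower (median -0.14).

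The partners of HSPB8 in chaperone-assisted autophagy are Bag3, the HSP70 gene Hspa8, the ubiquitin ligase gene Stub1, the autophagy receptor gene Sqstm1, Synpo2, Dnajb6 and Flnc. Of these 7, 5 were higher and 2 lower at 44 °C (median 0.57) and 4 were higher and 1 lower at 42 °C (median 0.28). Bag3 rose by 0.75 at 44 °C (SE 0.054, adjusted p 1.91e-08) and by 2.02 at 42 °C (SE 0.053, adjusted p 1.03e-12), so that Bag3 and Hspb8 were both higher at 42 °C. Bag3 fell at 7 h of H2O2 (-0.79, SE 0.062) and rose at 7 h of KCl (0.56, SE 0.059, adjusted p 1.21e-06), the group in which Hspb8 was lowest. Sqstm1 rose by 0.84 at 44 °C (SE 0.045) and 1.61 at 7 h of H2O2 (SE 0.083). Synpo2, at 0.08 to 3.78 TPM, rose by 4.38 at 7 h of H2O2 (SE 0.23) and by 2.48 at 7 h of KCl (SE 0.29). Under KCl Dnajb6, an HSP40 co-chaperone, rose by 1.17 at 7 h (SE 0.055). The list held 3 higher and 2 lower at 2 h of H2O2 (median 0.01), 3 and 3 at 7 h (median 0.12), 6 and 1 at 2 h of KCl (median 0.64) and 5 and 1 at 7 h (median 0.55).

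Kinases that phosphorylate small heat shock proteins, or act above those that do, made a list of 10. At 44 °C 4 were higher and 3 lower (median -0.01), and at 42 °C 5 and 2 (median 0.18), where 71.0% and 63.6% of all genes were called in either direction. Under H2O2 3 were higher and 3 lower at 2 h (median -0.05), and 4 and 6 at 7 h (median -0.31), against 53.9% and 70.5% of all genes. Under KCl 3 were higher and 2 lower at 2 h (median 0.09), and 5 and 3 at 7 h (median 0.18), against 54.2% and 68.8%. The counts of the other gene lists stand beside the same shares of all genes. Map2k3, which activates p38, rose by 0.59 at 44 °C (SE 0.044), by 0.49 at 42 °C (SE 0.044) and by 1.17 at 7 h of H2O2 (SE 0.057, adjusted p 2.03e-10). Mapkapk3, a kinase of HSPB1 that p38 activates, rose by 1.99 at 7 h of H2O2 (SE 0.073, adjusted p 1.12e-11). Prkd1, protein kinase D1, fell there (-1.51, SE 0.068) and rose by 2.47 at 7 h of KCl (SE 0.062, adjusted p 1.92e-12).

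The cytoskeletal clients formed a list of 8, of which 7 were tested under heat and 8 under H2O2 and KCl. At 44 °C 2 were higher and 4 lower (median -0.25), among them the actin gene Actb (-1.11, SE 0.04, adjusted p 2.44e-11) and the filamin gene Flna (-0.95, SE 0.044). At 42 °C 4 of 7 were higher (median 0.1). Under H2O2 2 were higher and 2 lower at 2 h (median 0.12), and 1 higher and 5 lower at 7 h (median -0.8). Vim, the vimentin gene, fell at 7 h of H2O2 (-0.88, SE 0.057, adjusted p 5.06e-09). Des, the gene of desmin, a muscle filament that CRYAB binds, rose there by 4.61 (SE 0.26, adjusted p 1.24e-09), at no more than 5.3 TPM in any library. Under KCl 3 of 8 were higher at 2 h (median 0.41), and 3 were higher and 1 lower at 7 h (median 0.1). Of 6 further genes of the small heat shock protein family, Cryaa, Hspb3, Hspb7, Hspb9 and Odf1 had 5 counts or fewer in every RNA library and were not tested. Hspb11, which is named for the family but works in cilia, rose at 7 h of H2O2 (1.19, SE 0.13, adjusted p 1e-06) and fell at 7 h of KCl (-1.6, SE 0.17, adjusted p 1.33e-06).

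Ribosome footprints under H2O2 and KCl were tested with less precision than RNA. Hspb2 held 0 to 11 footprint counts, below the filter on low counts, so 4 genes were tested. Cryab was the gene whose footprints were called higher. It held 72.42 and 54.18 footprint TPM in the control. H2O2 libraries held 105.89 and 85.26 TPM (2 h) and 166.26 and 172.21 TPM (7 h). KCl libraries held 69.16 and 55.12 TPM (2 h) and 135.61 and 116.4 TPM (7 h). Both 7 h groups lay above the control. The log2 rise was 1.31 at 7 h of H2O2 (SE 0.21, adjusted p 0.000588) and 1.02 at 7 h of KCl (SE 0.22, adjusted p 0.006), the latter not called without control replicate 2 (0.86, adjusted p 0.0625). At 2 h the differences were 0.64 for H2O2 (SE 0.22, adjusted p 0.16) and 0.02 for KCl (SE 0.22, adjusted p 0.976).

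Hspb1 footprints were 216.56 and 333.68 TPM in the control and between 293.4 and 504.5 TPM in the stressed libraries. Groups overlapped the control at 7 h of H2O2 and 2 h of KCl. Replicate 2 was the higher library in the control, at 7 h of H2O2 and at both times of KCl. At 2 h of H2O2 replicate 1 was higher. Replicates were not paired in the fit, so any spread shared by number remains in the SE. Log2 differences of Hspb1 were 0.69 and 0.3 for H2O2 at 2 h and 7 h (SE 0.29 each, adjusted p 0.249 and 0.469). For KCl they were 0.45 and 0.53 (SE 0.29 each, adjusted p 0.433 and 0.207). The difference at 2 h of H2O2 was called in 1 refit, whose replicate pairing was chosen after seeing the data (0.71, adjusted p 0.0178). Hspb8 footprints were at 21.82 and 31.52 TPM at 7 h of KCl, below the 41.46 and 62.84 TPM of the control, the group in which its RNA fell. That difference was -0.92 (SE 0.38, adjusted p 0.103), which passed the threshold when the fit held only the 2 groups (-0.93, adjusted p 0.045). In the other groups Hspb8 differed by 0.62, 0.57 and 0.75 (H2O2 2 h, H2O2 7 h and KCl 2 h, SE 0.36, 0.35 and 0.35), with adjusted p of 0.399, 0.247 and 0.254. Hspb6 footprints were 78.49 and 71.03 TPM in the control and 51.04 and 48.9 at 7 h of H2O2 (-0.64, SE 0.37, adjusted p 0.227). Elsewhere they differed by 0.65 (H2O2 2 h, SE 0.36), 0.17 (KCl 2 h, SE 0.36) and -0.31 (KCl 7 h, SE 0.37), with adjusted p of 0.385, 0.862 and 0.582.

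Footprint calls numbered 0 of 4 genes at 2 h of H2O2 (2 at an unadjusted p under 0.05), 1 at 7 h of H2O2, 0 at 2 h of KCl (0 at an unadjusted p under 0.05) and 1 at 7 h of KCl. DESeq2 gave the same numbers. Of all 10545 genes, 1.91%, 27.7%, 6.86% and 20.4% were called in these 4 comparisons. Member medians were 0.64, 0.43, 0.31 and 0.11 on the log2 scale, against 0.00064, 0.0075, 0.0064 and -0.022 over all genes. Standard errors of the 4 genes ran from 0.21 to 0.38 in footprints, against 0.063 to 0.099 in RNA of the same stresses, so differences of the size of the Hspb1 changes in RNA were not detectable in footprints.

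Translational efficiency sets a gene's footprints against its RNA, and its change was tested as an interaction in a fit over both kinds of library. Cryab gained at 2 h of H2O2, when its RNA had fallen (0.97, SE 0.2, adjusted p 0.00491), and this call held in each alternative, between 0.8 and 1.16. Without the shallow footprint H2O2 2 h replicate 1 it was 0.85 (adjusted p 0.0146). At 7 h of KCl, when its RNA was highest, it lost (-0.7, SE 0.19, adjusted p 0.0394). That second call was not made when only the groups compared were fitted (-0.69, adjusted p 0.0817). Nor was it made without RNA control replicate 1 (-0.78, adjusted p 0.0774) or 2 (-0.62, adjusted p 0.145), RNA KCl 7 h replicate 1 (-0.71, adjusted p 0.0903) or 2 (-0.68, adjusted p 0.115), footprint control replicate 1 (-0.51, adjusted p 0.18) or footprint KCl 7 h replicate 2 (-0.58, adjusted p 0.149). At the other times Cryab differed by 0.41 (7 h of H2O2, SE 0.19, adjusted p 0.189) and -0.11 (2 h of KCl, SE 0.2, adjusted p 0.795).

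The other 3 genes gave no call. Their differences ran from 0.06 to 0.53 for Hspb1 (SE 0.33), from 0.44 to 0.78 for Hspb6 (SE 0.33 to 0.37) and from 0.39 to 0.69 for Hspb8 (SE 0.34 to 0.39). The Hspb6 value at 2 h of H2O2 (0.78, adjusted p 0.136) passed the threshold without footprint H2O2 2 h replicate 2 (1.44, adjusted p 0.00549). That left replicate 1 alone, the shallowest library. In all, 1 gene was called at 2 h of H2O2, 0 at 7 h (1 at an unadjusted p under 0.05), 0 at 2 h of KCl (0 at an unadjusted p under 0.05) and 1 at 7 h, and limma voom gave the same numbers. Of 10480 genes, 11.4%, 9.27%, 12.8% and 5.57% were called. Medians of the 4 genes were 0.66, 0.42, 0.24 and 0.29, against -0.0078, 0.057, -0.021 and 0.0059 over all genes.

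**Figure D4:**
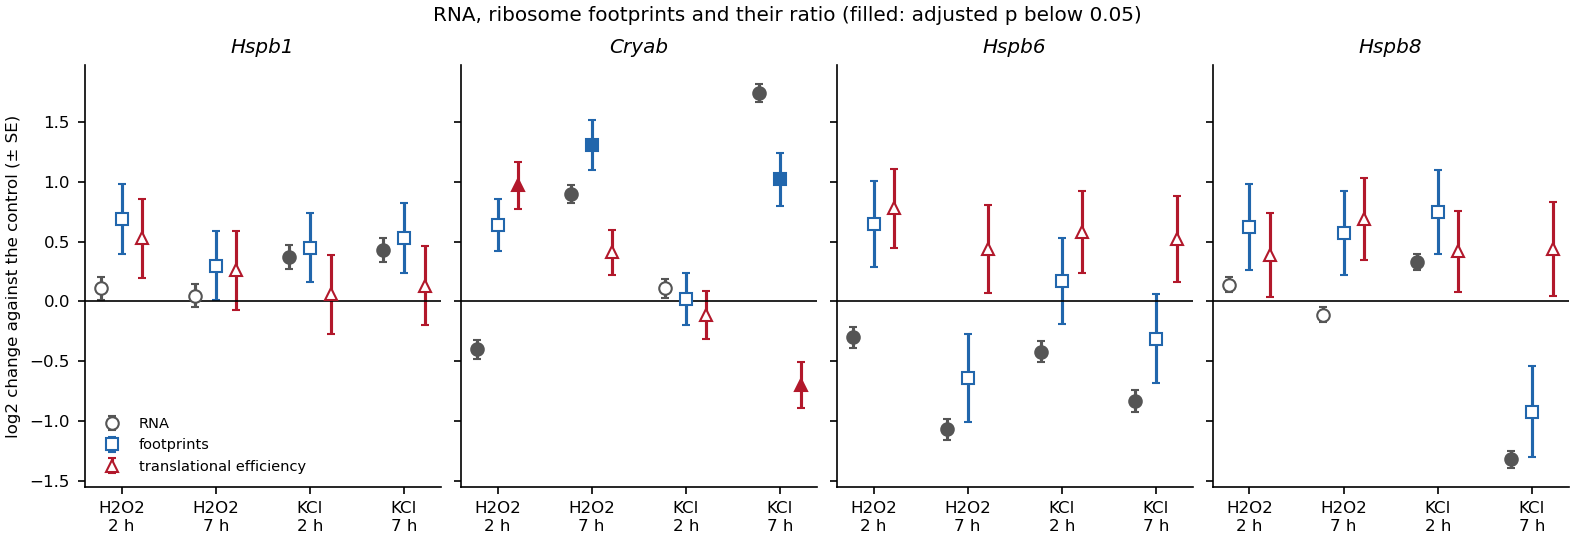
Log2 change (± SE of the fit) of RNA (circles), footprints (squares) and translational efficiency (triangles) against the shared control, for 4 genes in 4 stresses. Filled symbols have an adjusted p below 0.05. Cryab has filled squares at 7 h of H2O2 (1.31) and of KCl (1.02) and filled triangles at 2 h of H2O2 (0.97) and 7 h of KCl (-0.7).

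As a level, the ratio of mean footprint TPM to mean RNA TPM in the control was 2.43 for Hspb1, above 95.2% of 10413 genes, 1.55 for Cryab (above 89.2%), 1.01 for Hspb6 (above 75.5%) and 0.57 for Hspb8 (above 43.2%). The order of the 4 genes was the same at 2 h of H2O2, with 3.5, 3.03, 1.83 and 0.793. At 7 h of KCl Cryab was at 0.96 (above 69.4% of 10376 genes), between Hspb8 at 0.778 and Hspb6 at 1.7. These ratios divide values that were normalized apart and have no error of their own. Hspb1 footprints made up 51.6% to 67.4% of the family's footprint TPM in the 10 libraries. Of the 18 HSF1 chaperone genes, footprints were called higher in 1 (H2O2 2 h), 3 (H2O2 7 h), 3 (KCl 2 h) and 5 (KCl 7 h), and lower in 3 after 7 h of H2O2.

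Across the groups the genes kept different orders. RNA of Hspb1 was highest at 44 °C and next at 42 °C, and the remaining 6 groups overlapped from each to the next. RNA of Cryab was highest at 7 h of KCl, then at 44 °C and at 7 h of H2O2, each clear of the next. Its lowest group means were those of the 42 °C group, the heat control and 2 h of H2O2, which overlapped from each to the next. Hspb6 was highest in the heat control and lowest at 7 h of H2O2, with every group but 42 °C clear of the one below it. Hspb8 was highest at 2 h of KCl, overlapping 42 °C, and lowest at 7 h of KCl. Hspb2 stood clear at 7 h of KCl alone.

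Over the 6 log2 changes of RNA, which share controls within each experiment, the patterns of Hspb2 and Hspb8 ran against each other (r = -0.95, n = 6 changes). Those of Cryab and Hspb2 ran together (r = 0.8), and Hspb1 and Cryab were little related (r = 0.22). Of the Hspb2 changes only that at 7 h of KCl was called, and their SE ran from 0.34 to 0.58. Reads of Cryab and Hspb2 may also not be told apart in full. The correlations are descriptions over 6 points with no test. They compare the shape of the changes and not their size or direction. By the same measure, among 5538 genes that changed by at least 1 in some stress, those most like Hspb1 were Hsp90aa1 (r = 0.9885), the HSP90 co-chaperone gene Ahsa1 (r = 0.9815) and Bnipl (r = 0.963). Hsp90aa1 changed by 2.24 at 44 °C and 1.53 at 42 °C. Most like Cryab were Cep97, Amt and Zfp583 (r = 0.9964 to 0.9867), and among those most like Hspb2 were Frat1 (r = 0.9909) and Zfp954 (r = 0.9859). Among those most like Hspb6 were Lpcat4 (r = 0.9863) and Hoga1 (r = 0.9735), and most like Hspb8 were Bok, Zfp326 and Macrod1 (r = 0.9942 to 0.9876). Bok changed by -0.4 at 44 °C and -0.32 at 2 h of KCl, where Hspb8 rose by 0.3 and 0.33. At 7 h of KCl both fell (-1.5 and -1.32).

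The series also lists DoGs, transcripts that run on downstream of a gene's end, as the authors' true or false call per RNA library, for 6399 pairs of an upstream and a downstream gene. Hspb1 is the upstream gene of a pair with Zp3, an egg coat gene at chr5:135980105-135988624. A DoG of Hspb1 was called in all 4 heated libraries and in neither heat control. It was also called in H2O2 2 h replicate 2 and H2O2 7 h replicate 2 but not in their replicates 1, and in no other library, 6 of 16 in all. The same pattern within the heat experiment was shown by 61 of the 6399 pairs (0.953%). Hspb1 RNA itself was 37.0-fold higher at 44 °C and 15.7-fold higher at 42 °C than in the heat control. The part of this level in the DoG calls was not tested. Called DoGs made up 19.4% to 35.7% of the pairs per library. Zp3 RNA remained between 0.0 and 0.21 TPM, and no read-in call, which marks transcription entering the downstream gene, was made for the pair.

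Hspb2 is paired with Dixdc1 downstream (chr9:50662752-50739602). A DoG was called in KCl 2 h replicate 1 alone, and no read-in was called. The authors' read-in estimate for that pair, a score without a stated formula, was 0.291 to 0.879. Pih1d2 (chr9:50617321-50625000) is paired with Cryab downstream, with a DoG call in 44 °C replicate 1 alone, no read-in call and an estimate of 0.0 in all 16 libraries. The rises of Cryab were thus not among the authors' read-in calls. Hspb6 and Hspb8 were in no listed pair.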

How the data were processed

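Polyadenylated RNA (16 libraries) and ribosome footprints (10 libraries) of NIH3T3 cells were used in the units that the authors deposited, expected counts per gene and TPM. Per the submitters' processing notes, STAR, RSEM, Bowtie and build mm10 were used. Versions, gene annotation and read-length filters of the footprints are not given in the sources used. The authors' read-in estimate was deposited as a score without its formula, and DoG and read-in calls as true or false. A further 12 columns that matched no labelled sample were not used. The expected counts were whole numbers already. They were tested in edgeR 4.0.16 (R 4.3.3; TMM, filterByExpr, quasi-likelihood F test, Benjamini-Hochberg, threshold 0.05) over 12747 (heat RNA), 13256 (H2O2/KCl RNA), 10545 (footprints) and 10480 genes (efficiency, as an interaction of kind of library and stress). Groups of an experiment shared the estimate of spread, and SE is the log2 fold change over the root of F. The scripts were tested on simulated data.

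The 5 genes and the gene lists were chosen with earlier results of these data known. In each list and comparison up to 3 called genes of the largest change could be named, and likeness was Pearson's r over the 6 RNA changes (the 3 genes of highest r per member, of which some are not reported here). Pairs of replicates differed by more than counting noise (chi-square per gene 3.16 to 11.6), and none was identical. Alternatives were RLE size factors, DESeq2 1.42.0, other filters, limma 3.58.1 on log2 TPM with a pseudocount of 1 or 0.1 or with voom, a replicate block, the compared groups alone and leaving out each library.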

Additional observations from a re-analysis of the deposited data

Results flagged for a closer look

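Effects of a stress at 2 h and at 7 h that differed by the edgeR quasi-likelihood test of the 7 h group against the 2 h group (Benjamini-Hochberg adjusted, RNA, 2 libraries per group) are listed here. The effects against the control share that control. Under H2O2, Cryab went from -0.4 at 2 h to 0.9 at 7 h (difference 1.3, adjusted p 3.39e-09) and Hspb6 from -0.3 to -1.07 (difference -0.77, adjusted p 3.68e-06). Hspb8 went from 0.14 to -0.11 (difference -0.24, adjusted p 0.0036), neither effect being called alone, and Hspb2 from -0.32 to 0.7 (difference 1.02, adjusted p 0.0498, on 8 to 22 counts per library). That Hspb2 call was lost with DESeq2 (adjusted p 0.155), with RLE size factors (0.0569) and without 2 h replicate 1, 2 h replicate 2 or 7 h replicate 1 (adjusted p 0.158, 0.103 and 0.349). Under KCl, Cryab went from 0.11 to 1.74 (difference 1.63, adjusted p 5.46e-10), Hspb2 from -0.63 to 2.04 (difference 2.67, adjusted p 6.27e-05) and Hspb6 from -0.42 to -0.83 (difference -0.41, adjusted p 0.00137). Hspb8 went from 0.33 to -1.32 (difference -1.65, adjusted p 1.97e-10), with opposite directions that were both called.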

How the results depend on the processing

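Of 1082 refits of single genes, 996 kept direction and side of the threshold, 40 lost a call, 17 gained one and 29 changed sign. None of the sign changes was of a called value. Leaving out each library gave these ranges for them. Hspb1 RNA ran from -0.071 to 0.27 at 2 h of H2O2, -0.033 to 0.13 at 7 h of H2O2, -0.22 to 0.12 between the H2O2 times and -0.03 to 0.14 between the KCl times. Hspb2 RNA ran from -0.32 to 1.32 at 44 °C and from -0.25 to 1.18 for H2O2 against KCl at 2 h. Footprints ran from -0.042 to 0.69 for Hspb1 at 7 h of H2O2, -0.14 to 0.26 for Cryab at 2 h of KCl and -0.88 to 0.13 for Hspb6 at 7 h of KCl. Efficiency of Hspb1 ran from -0.050 to 0.66 (H2O2 7 h), -0.29 to 0.45 (KCl 2 h) and -0.18 to 0.52 (KCl 7 h). At 2 h of KCl it ran from -0.26 to 0.086 for Cryab and -0.10 to 0.81 for Hspb8, and at 7 h from -0.013 to 1.00 for Hspb6. Of other settings, Hspb1 RNA at 7 h of H2O2 was -0.0021 with the stricter filter, -0.0068 with the compared groups alone and -0.031 on log2 TPM with either pseudocount, and Cryab footprints at 2 h of KCl were -0.021 on log2 TPM with either pseudocount.

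The number of members called moved by over 1.5 times in these cases. At 42 °C it was 5 in place of 3 with no filter on low counts. For H2O2 against KCl at 2 h it was 1 in place of 3 with the compared groups alone and on log2(TPM + 1) or log2(TPM + 0.1), and 1 to 2 leaving out each library. At 2 h of H2O2 leaving out each library gave 1 to 3. Footprints at 7 h of KCl gave 2 in place of 1 with the compared groups alone (Hspb8 added) and on log2(TPM + 1), where Hspb2 passed the TPM filter and was called on 0 to 11 counts, and 0 to 1 leaving out each library. Efficiency at 2 h of H2O2 gave 1 to 2 leaving out each library, and at 7 h of KCl 0 to 1, with 0 for the compared groups alone. With the replicate block 4 members were called at 42 °C in place of 3 (Hspb6, -0.13, adjusted p 0.0476), and no other call of a member changed. Same-numbered replicates correlated by -0.053 to 0.117 in RNA. In footprints they correlated by 0.198 to 0.417 among the other groups and by -0.384 to -0.046 with H2O2 2 h. The numbers thus did not pair alike in all groups and were not taken as pairs in the main fit. Any spread that replicates share between groups therefore remains in its footprint SE. Crossing the footprint numbers at 2 h of H2O2, chosen after seeing the data, gave 1 call in place of 0. The gene was Hspb1 (0.71, adjusted p 0.0178, against 0.69 and 0.249 in the main fit). Where leaving out a library left 1 in a group, it was assumed to vary like the other groups. Depth limits Hspb2 (3 to 45 RNA counts) and the footprints.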

Other observations

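Hspb2 and Cryab have 12 further tested neighbours within 200 kb, a window chosen after their values were seen. At 7 h of KCl, 6 of the 14 genes, Cryab and Hspb2 included, were called higher and 4 lower, where 37.2% and 31.6% of all genes were, so the counts were near those of genes at large. Besides Cryab and Hspb2 (1.74 and 2.04), the larger rises were those of the adjacent Dixdc1 (2.24, adjusted p 2.15e-11, edgeR) and of the kinase gene Sik2 (1.66, adjusted p 1.69e-10) at the other end of the window. Dixdc1 RNA was 7.91 and 8.63 TPM in the control and 34.02 and 36.77 TPM at 7 h of KCl. At 44 °C Dixdc1 rose by 0.24 (adjusted p 0.00269) where Cryab rose by 1.27. At 2 h of H2O2 Dixdc1 fell by 1.02 (adjusted p 2.04e-07) where Cryab fell by 0.4, and at 7 h of H2O2 both were higher (0.47 and 0.9).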
